A study of Nicotiana benthamiana with 9 samples.

Results

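The plastid genes psbM and petN each code for a very short membrane protein of the photosynthetic electron transport chain, and they are neighbours on the plastid sequence of Nicotiana benthamiana, a relative of tobacco used for transient expression. They are 2 of the 106 rows of the counted gene table, found by their names. psbM was chosen by its measured log2 difference, which was among the lowest relative to the control in leaves that expressed an editing factor, and petN because it lies beside psbM. Values of the editor against control contrast are therefore given for both genes as a description, with no test.

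Wild-type leaves were infiltrated in 3 groups of 3 libraries. The first group expressed dPPRerpl2, an engineered protein of pentatricopeptide repeats (modules that bind RNA) made for editing RNA, together with the P19 silencing suppressor, from the vector pGWB2 (PWB2 in the sample titles). The second expressed the same 2 proteins with pMDC32 as the vector of the editor, and the third, the control, expressed P19 alone, so every group carried P19. Sample titles place replicate 1 of each group at 2 days post infiltration (dpi) and the other 2 replicates at 3 dpi, while the series text places every library at 3 dpi. Day and replicate number therefore cannot be told apart. Biological replicates are stated in the series text, and the labels do not say whether plants or leaves were separate, so the p-values measure the spread between these libraries.

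Photosystem II is the complex that takes electrons from water. The protein of psbM spans the thylakoid membrane once and sits where the monomers of the photosystem II dimer meet. The cytochrome b6f complex passes electrons on towards photosystem I and pumps protons while doing so. The protein of petN is a similarly short single-helix subunit of that complex, and in tobacco the complex does not accumulate without it.

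Libraries held 32457135 to 44392760 counted reads. The editor transgene had 53090 to 359902 reads in the 6 editor libraries and 0, 11 and 4 in P19 replicates 1 to 3. Replicate 1 of P19 stood apart from the other libraries. There psbA, which codes for the D1 protein, took 61.1% of counts, against 44.0% to 52.6% elsewhere, and the TMM normalization factor of the library was 0.742 where the others had 0.956 to 1.09. The log2 differences of psbM and petN from P19 are given with and without that library. Means, SDs and ranks of level in P19 leaves include it unless stated. A fold change is relative to the other plastid genes, because only plastid rows and the transgene were counted, and in bulk leaf RNA fewer cells of a type cannot be told apart from less RNA per cell.

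The rows of petN (positions 29481 to 29570, plus strand, 90 nt) and psbM (30705 to 30809, minus strand, 105 nt) lay 1134 nt apart in the coordinates of the deposited table, for which no genome build was named. As they were on opposite strands, transcription of each ran towards the other. No other row overlapped either of them (0 rows). Upstream of petN on its own strand lay trnC (28739 to 28810), a transfer RNA gene, with rpoB and rpoC1 of the plastid RNA polymerase beyond it on the minus strand. Upstream of psbM on its own strand lay the transfer RNA genes trnD (31895 to 31968), trnY (32077 to 32160) and trnE (32220 to 32292). How reads that reach beyond such short rows were counted was not stated, which limits how well a level per length compares rows of different length.

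Both genes ranked high among plastid protein-coding transcripts when levels were set per length. As CPM (counts scaled to a common library size with TMM factors) per kb of row, psbM averaged 30898 ± 4005 with pGWB2, 31097 ± 3581 with pMDC32 and 44433 ± 12731 in P19 leaves, and petN averaged 22306 ± 2792, 22851 ± 2545 and 28375 ± 15809 in the same groups (SD, n = 3 each). Without P19 replicate 1 the P19 mean was 37384.5 for psbM and 19385 for petN (2 libraries), the second below the petN mean of either vector. Of the 80 protein-coding rows, psbM ranked 8 with either vector and 7 in P19, and petN ranked 11 with either vector and 10 in P19. Over single libraries the rank of psbM ran from 5 to 9 and that of petN from 10 to 11.

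Among the 14 protein-coding rows of at most 150 nt, the nearest neighbours in level were other small subunits. With pGWB2, psbI of photosystem II came just above psbM at 33364 ± 2485 CPM per kb and psaJ of photosystem I just below it at 23099 ± 3217 (SD, n = 3 each). In P19 leaves psbI stood below psbM, at 38738 ± 17718 CPM per kb (SD, n = 3), a gap well inside the spread of both genes. psaJ and petN were also close in every group, with petN at 22306 ± 2792 and psaJ at 23099 ± 3217 CPM per kb in pGWB2 leaves (SD, n = 3 each), so that neither psbI and psbM nor psaJ and petN differed by more than 1 SD with pGWB2. By contrast petL, for another b6f subunit, stood at 6084 ± 432 with pGWB2, 4152 ± 228 with pMDC32 and 7388 ± 2791 CPM per kb in P19 leaves (SD, n = 3 each), below petN in every group mean.

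**Figure D1:**
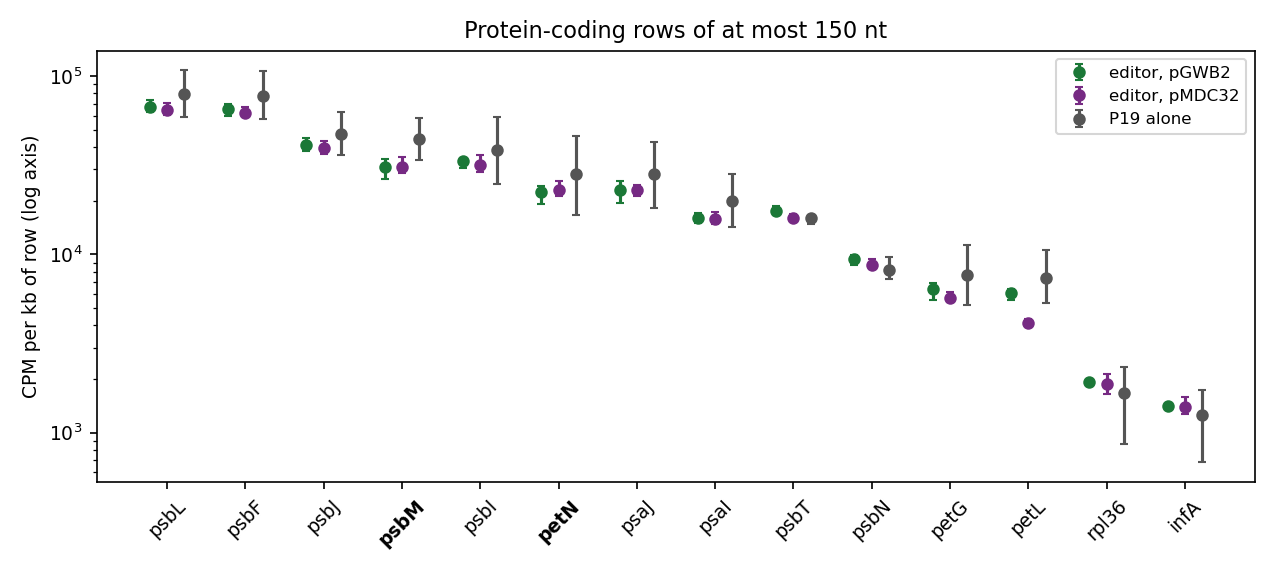
Level per length (CPM per kb of row, log axis) of the 14 protein-coding rows of at most 150 nt, ordered by their P19 mean. Points are group means and bars run from the lowest to the highest of 3 libraries. psbM and petN lie in the upper part of the order, and the P19 bars are the widest for both, as for most of the other rows drawn.

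The level of psbM lay lower with the editor than in P19 leaves on average, with groups that overlapped. It was 3604, 2782 and 3346 CPM in pGWB2 replicates 1 to 3 and 2988, 3114 and 3693 CPM in pMDC32 replicates 1 to 3, against 6146, 4304 and 3546 CPM in P19 replicates 1 to 3. P19 replicate 1 was the highest of all libraries and P19 replicate 3 lay among the editor libraries, of which 4 of 6 were below every P19 library and 2 were within the P19 range. Group means were 3244 ± 421 CPM with pGWB2, 3265 ± 376 with pMDC32 and 4665 ± 1337 in P19 (SD, n = 3 each). The log2 difference from P19 was -0.52 for pGWB2 (SE 0.21, 95% interval -0.99 to -0.053) and -0.51 for pMDC32 (SE 0.21, 95% interval -0.99 to -0.044), and over the 6 editor libraries together it was -0.52 (SE 0.17), a change of -30.2%. These are the values that chose psbM, so their 95% intervals are a description and not a test. They share the same P19 libraries and so are not independent of each other.

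For petN the spread of the control came mostly from 1 library. Its level was 2131, 2174 and 1718 CPM in pGWB2 replicates 1 to 3 and 1907, 1943 and 2320 CPM in pMDC32 replicates 1 to 3, against 4172, 1499 and 1991 CPM in P19 replicates 1 to 3. All 6 editor libraries lay inside the P19 range, since P19 held both the highest and the lowest of the 9 values. Group means were 2008 ± 251 CPM with pGWB2, 2057 ± 229 with pMDC32 and 2554 ± 1423 in P19 (SD, n = 3 each). The log2 difference from P19 was -0.35 for pGWB2 (SE 0.33, 95% interval -1.08 to 0.39) and -0.31 for pMDC32 (SE 0.33, 95% interval -1.05 to 0.42). Over the 6 editor libraries it was -0.33 (SE 0.26).

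**Figure D2:**
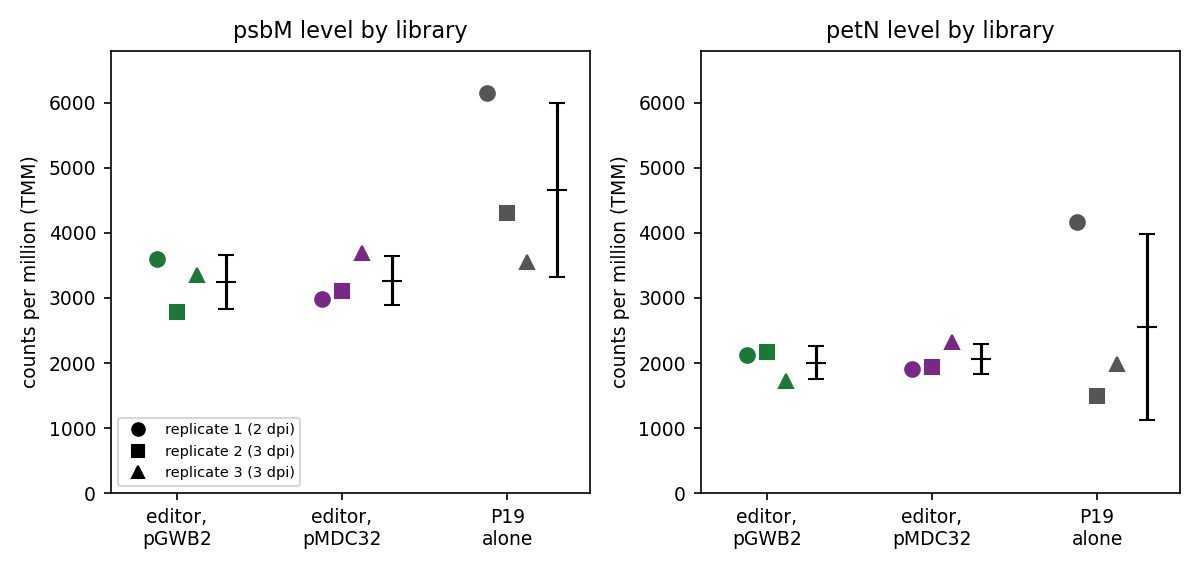
Level of psbM and petN (CPM after TMM scaling) in each library, with symbols for the replicate number and its labelled day and bars for the group mean ± SD (n = 3). P19 replicate 1 is the highest library for both genes, at 6146 CPM of psbM and 4172 CPM of petN, and the editor libraries sit close together.

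Without P19 replicate 1 psbM stayed below the control mean and petN moved above it. The log2 difference of psbM was then -0.25 for pGWB2 (SE 0.18, 95% interval -0.64 to 0.14), -0.19 for pMDC32 (SE 0.18, 95% interval -0.58 to 0.20) and -0.22 over both (SE 0.15). That of petN was 0.23 for pGWB2 (SE 0.18, 95% interval -0.15 to 0.61), 0.31 for pMDC32 (SE 0.18, 95% interval -0.071 to 0.70) and 0.27 over both (SE 0.15). From the lowest of 105 plastid genes, psbM ranked 5 and petN 17 over both vectors with all libraries, and without P19 replicate 1 they ranked 19 and 97.

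The sequencing lane, read from the column names, also set P19 replicate 1 apart from the other P19 libraries. Lane 4 held all pGWB2 libraries and P19 replicates 2 and 3. These are the libraries that the pGWB2 difference without P19 replicate 1 compares, so the 2 are not independent. Within lane 4 the log2 difference from P19 was -0.27 for psbM (SE 0.18) and 0.20 for petN (SE 0.19). Within lane 8, which held pMDC32 replicates 1 and 2 and, as the single control, P19 replicate 1, it was -0.96 for psbM and -1.07 for petN. With the lane as covariate over all libraries it was -0.55 for psbM (SE 0.18) and -0.30 for petN (SE 0.26). The part of the lane in these values was not tested, and within lane 8 it cannot be told apart from that library.

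Of the scalings tried (DESeq2 size factors, upper quartile and library totals), library totals moved both differences over both vectors most. With library totals alone in place of TMM, the median of all plastid genes over both vectors moved to 0.10, against -0.076 with TMM. The log2 difference of psbM was then -0.30 and that of petN -0.051. Relative to the median of all plastid genes, psbM lay at -0.44 with TMM and -0.40 with library totals, and petN at -0.25 and -0.15. As a share of counts with no further scaling, psbM made up 0.371%, 0.279% and 0.360% in pGWB2 replicates 1 to 3 and 0.296%, 0.341% and 0.404% in pMDC32 replicates 1 to 3, against 0.456%, 0.462% and 0.339% in P19 replicates 1 to 3. By this share only pGWB2 replicate 2 and pMDC32 replicate 1 lay below every P19 library, fewer than in CPM.

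**Figure D3:**
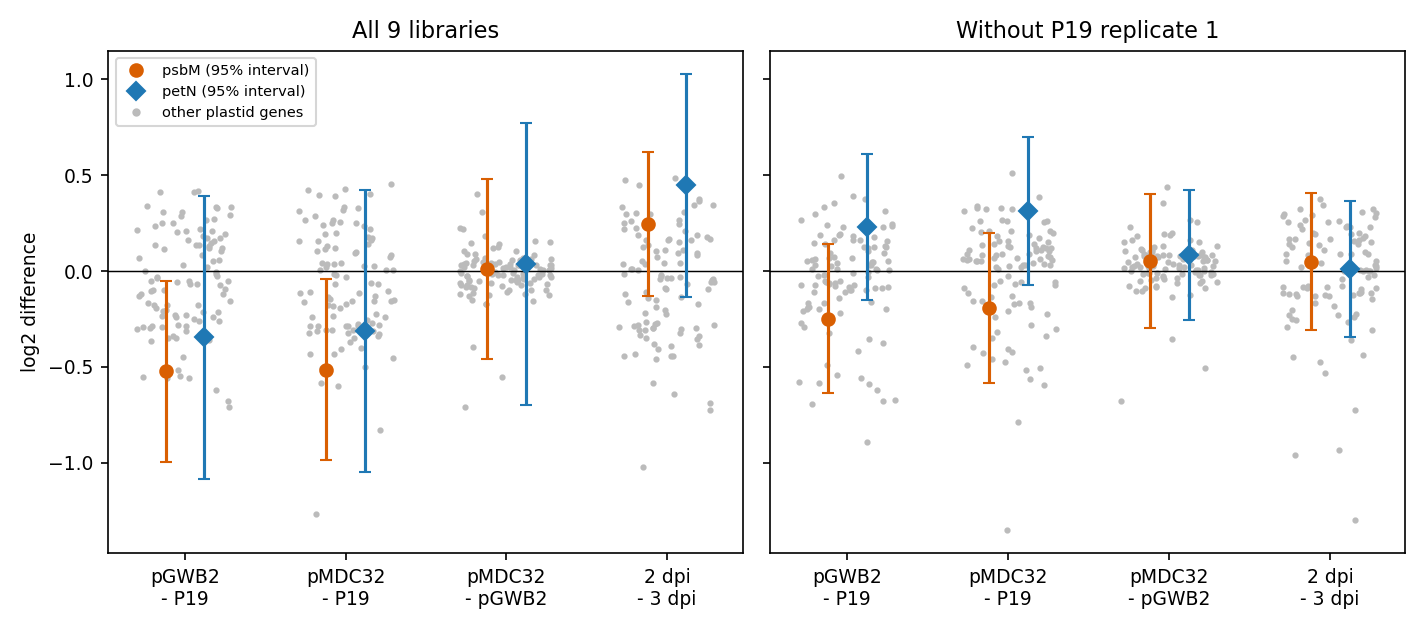
Log2 differences of psbM and petN with 95% intervals and of the other plastid genes (grey points) in 4 contrasts, with all 9 libraries (left) and without P19 replicate 1 (right). With all libraries both genes lie below 0 against P19, and without that library petN lies above 0 (0.23 and 0.31) while psbM remains below it (-0.25 and -0.19). The intervals against P19 are a description and not a test, as values of that contrast chose psbM.

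The comparison of vectors, which played no part in choosing the genes, asked whether the vector mattered for them. psbM stood at 3265 ± 376 CPM with pMDC32 and 3244 ± 421 with pGWB2 (SD, n = 3 each), which differed by 0.0093 on the log2 scale (95% interval -0.46 to 0.48, SE 0.21, adjusted p = 0.998 by the edgeR quasi-likelihood test, Benjamini-Hochberg adjusted). petN stood at 2057 ± 229 CPM with pMDC32 and 2008 ± 251 with pGWB2 (SD, n = 3 each), which differed by 0.035 on the log2 scale (95% interval -0.70 to 0.77, SE 0.33, adjusted p = 0.998 by the same edgeR test). By that test 0 of the 2 genes passed, as did 0 of 105 plastid genes (0% called), of which 1 had an unadjusted p under 0.05, and DESeq2 and limma-voom called 0. For either gene 1 pMDC32 library lay above every pGWB2 library and 2 lay within their range. All pGWB2 libraries were in lane 4 and no pMDC32 library was, so vector and lane cannot be told apart.

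Libraries labelled 2 dpi were compared with those labelled 3 dpi, with the group as covariate. Neither gene passed the test. On the log2 scale the 2 dpi level minus the 3 dpi level was 0.24 for psbM (SE 0.16, 95% interval -0.13 to 0.62, adjusted p = 0.386) and 0.45 for petN (SE 0.25, 95% interval -0.13 to 1.03, adjusted p = 0.318), both by the edgeR quasi-likelihood test, Benjamini-Hochberg adjusted. Among plastid genes 0 of 105 passed (0% called) and 12 had an unadjusted p under 0.05, while DESeq2 called 2 and limma-voom 0. Within groups the 2 dpi library over the mean of the 3 dpi libraries was 1.18 for psbM with pGWB2, 0.878 with pMDC32 and 1.57 in P19. For petN these ratios were 1.09 with pGWB2, 0.894 with pMDC32 and 2.39 in P19, so the direction in pMDC32 leaves was opposite to that in the other groups for both genes. The values were 0.032 for psbM and 0.24 for petN with library totals in place of TMM, and 0.45 and 0.73 without pMDC32 replicate 1. Leaving out P19 replicate 1 gave 0.049 for psbM and 0.010 for petN, and P19 then has no library labelled 2 dpi.

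By labelled day, petN at 2 dpi stood at 2131 CPM with pGWB2 and 1907 with pMDC32, against 4172 in P19 replicate 1, the only 2 dpi control. At 3 dpi its means were 1946 CPM with pGWB2, 2132 with pMDC32 and 1745 in P19 (2 libraries each). For psbM the 2 dpi values were 3604 CPM with pGWB2 and 2988 with pMDC32, against 6146 in P19, and the 3 dpi means were 3064, 3404 and 3925 CPM in the same groups. The editor libraries thus lay below P19 at 2 dpi for both genes, while at 3 dpi the petN means of both editor groups lay above it. These values belong to the contrast that chose psbM and carry no test, and the labelled day and P19 replicate 1 cannot be told apart in P19 leaves.

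After TMM scaling P19 replicate 1 was high in most short rows. In CPM both members had their highest level of all 9 libraries there. So did 8 of the 12 other protein-coding rows of at most 150 nt and 12 of the 66 longer ones. These levels were scaled with the TMM factor of that library, 0.742. As a share of counts psbM was at 0.456% there, under the 0.462% of P19 replicate 2. The log2 level in P19 replicate 1 minus the mean of P19 replicates 2 and 3 was 1.27 for petN and 0.65 for psbM. The other short rows had a median of 0.74 with 9 of 12 above 0, from -1.23 (rpl36) to 1.04 (psbI). The longer rows had a median of -0.20 with 26 of 66 above 0, from -1.78 (rpoC1) to 1.10 (psbK). Rows of either length class went both ways, as infA among the short rows was at -1.17 and psbA among the longer at 0.74. In replicate 1 of the editor groups the medians of the other short rows and of the longer rows were 0.029 and 0.037 with pGWB2, and -0.086 and 0.052 with pMDC32. Whether row length or the kind of gene has a part in the values of psbM and petN was not tested.

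**Figure D4:**
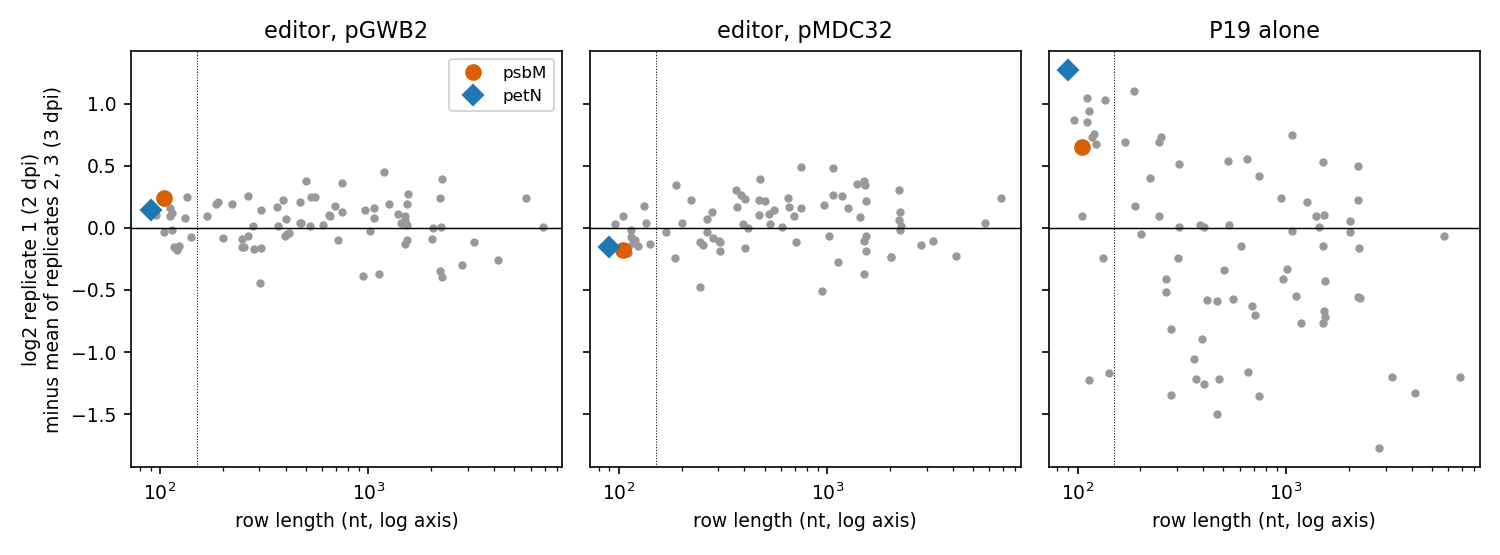
Log2 level in replicate 1 (2 dpi) minus the mean of replicates 2 and 3 (3 dpi) against row length (log axis) for protein-coding rows in each group, with the dotted line at 150 nt. The rps12 row, which spans 70359 nt, is not drawn. In P19 leaves petN (1.27) lies above and psbM (0.65) below the median of the other short rows (0.74). With pGWB2 petN is at 0.14 and psbM at 0.24, and with pMDC32 at -0.16 and -0.18.

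The ratio of psbM to petN within a library does not depend on scaling. Per nt, psbM exceeded petN in all 9 libraries. The ratio was 1.45, 1.10 and 1.67 in pGWB2 replicates 1 to 3 and 1.34, 1.37 and 1.36 in pMDC32 replicates 1 to 3, against 1.26, 2.46 and 1.53 in P19 replicates 1 to 3. P19 replicate 2 had the highest ratio, with the lowest petN level of all libraries and a psbM level (4304 CPM) exceeded only in P19 replicate 1, and the pMDC32 libraries were almost equal. The mean log2 ratio was 0.47 ± 0.31 with pGWB2, 0.44 ± 0.016 with pMDC32 and 0.75 ± 0.50 in P19 (SD, n = 3 each).

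Over the 6 editor libraries the mean log2 ratio lay 0.29 below that of P19 (-0.29), within the P19 spread. Without P19 replicate 2 the difference was -0.017, without P19 replicate 1 it was -0.50, and with the 3 dpi libraries alone -0.51. The ratio with pMDC32 minus that with pGWB2 was -0.025 on the log2 scale (exact permutation test, two-sided, p = 1, where 3 against 3 cannot go below 0.1). For 2 dpi minus 3 dpi within groups it was -0.18 (exact permutation test over 27 arrangements, two-sided, p = 0.481, where the smallest possible is 0.037), made up of 0.10 in pGWB2, -0.027 in pMDC32 and -0.62 in P19. The 2 ratio tests are a family of their own and neither passes before adjustment.

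**Figure D5:**
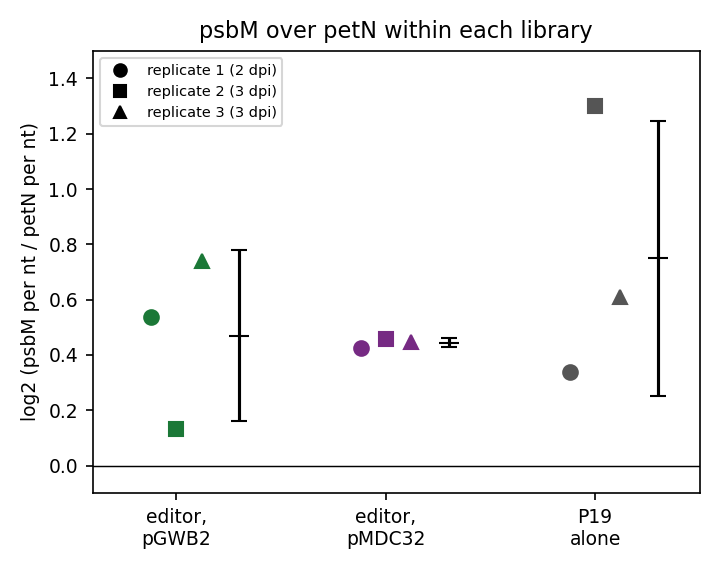
Log2 ratio of psbM to petN, each per nt of its row, in every library, with bars for the group mean ± SD (n = 3). All libraries lie above 0, and P19 replicate 2 is the highest at 1.30.

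The genes whose pattern over the 9 libraries was most like that of each member shared 1 gene, psaI, among the first 5. Likeness was the root mean square (RMS) difference in log2 CPM after centring each gene, over the 79 other protein-coding rows. Closest to petN were psbK (0.077) and psbI (0.087) of photosystem II, psaJ of photosystem I (0.091), petG of the b6f complex (0.13) and psaI of photosystem I (0.14), and each of these codes for a small membrane subunit. petN itself varied by 0.39 about its mean, so these differences are small beside its own spread. These 5 genes ranked from 1 to 6 when P19 replicate 1 was left out.

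Closest to psbM were rpl32 of the large ribosomal subunit (0.15), ndhE of the NADH dehydrogenase-like complex (0.19), psaI (0.20), psaC of photosystem I (0.23) and psbA (0.23), where psbM itself varied by 0.32. Without P19 replicate 1, rpl32 ranked 2 and ndhE 7, but psaI, psaC and psbA ranked 19, 35 and 43. The neighbours psbM and petN were not alike by this measure: at an RMS difference of 0.31, petN ranked 26 for psbM and psbM ranked 20 for petN. They were 73 and 67 with P19 replicate 1 left out.

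The transfer RNA rows beside the pair also lay below P19. They did so by less than psbM, which says little, since psbM was chosen for a low value in this contrast. Over both vectors, the log2 differences of trnD, trnY and trnE, which share the strand of psbM, were -0.26 (SE 0.13), -0.29 (SE 0.14) and -0.35 (SE 0.17), and without P19 replicate 1 they were -0.11, -0.14 and -0.13. That of trnC, on the strand of petN, was -0.27 (SE 0.12), and -0.18 without that library. The polymerase genes rpoB and rpoC1 differed by 0.11 (SE 0.24) and -0.14 (SE 0.35), and with P19 replicate 1 left out by -0.15 and -0.50, the second of which is lower than psbM at -0.22. All 4 transfer RNA rows are 72 to 84 nt long and were at far lower levels than the pair, with group means from 80.9 CPM (trnC, pGWB2) to 457 CPM (trnY, P19).

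Other genes of the 2 complexes were read as fixed lists. Against P19, by the edgeR quasi-likelihood test, Benjamini-Hochberg adjusted, 0 of the 14 other photosystem II genes and 0 of the 5 other cytochrome b6f genes passed in either direction with pGWB2, with pMDC32 or over both vectors, and DESeq2 and limma-voom called 0 of them. The background over all 105 plastid genes was 0% called in each of these comparisons by edgeR, while DESeq2 called 1, 1 and 3 genes. Over both vectors 1 photosystem II gene and 1 b6f gene had an unadjusted edgeR p under 0.05, against 16 of all 105 plastid genes.

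Over both vectors 12 of the 14 other photosystem II genes had a log2 difference below 0, with a median of -0.19, against 61 of 105 plastid genes and a median of -0.076. The extremes were psbA at -0.40 (SE 0.16) and psbN, whose product helps in photosystem II assembly, at 0.15 (SE 0.12), beside -0.52 for psbM, which was chosen for a low value in this contrast. Without P19 replicate 1 only 3 of the 14 lay below 0, namely psbA (-0.061), psbC (-0.065) and psbD (-0.099), which code for core proteins, beside -0.22 for psbM. The median of the 14 was then 0.067, and that of all plastid genes 0.020.

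Of the 5 other b6f genes 4 lay below 0 over both vectors, with a median of -0.17. The lowest was petL at -0.53 (SE 0.24), for which the vectors differed, with -0.28 for pGWB2 and -0.83 for pMDC32. The highest was petA, for cytochrome f, at 0.094 (SE 0.13), and petN at -0.33 stood beside petG at -0.35 (SE 0.21). Without P19 replicate 1 petL alone lay below 0 (-0.13), the median was 0.085, and petN was at 0.27. By vector petL was then at 0.095 with pGWB2 and -0.41 with pMDC32. Between labelled days 14 of 14 other photosystem II genes had a value above 0 (median 0.18) and 4 of 5 other b6f genes (median 0.30). Of all plastid genes 47 of 105 did (median -0.037). Without P19 replicate 1 these counts were 8 of 14, 5 of 5 and 57 of 105. Between days 2 of the 14 and 1 of the 5 had an unadjusted edgeR p under 0.05, against 12 of 105 plastid genes. Of the 14 and the 5, 0 passed after adjustment by edgeR, DESeq2 or limma-voom.

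The 12 other short protein-coding rows overlap with these lists, as psbL, psbF, psbJ, psbI, psbT, psbN, petG and petL belong to both. Over both vectors 8 of 12 lay below P19, against 61 of 105 plastid genes. The median log2 difference of the 12 was -0.26 and the range -0.53 to 0.19, beside -0.52 for psbM and -0.33 for petN. Without P19 replicate 1, 3 of 12 lay below P19, against 46 of 105 plastid genes. The median of the 12 was then 0.067, with a range of -0.13 to 0.23. psbM at -0.22 (SE 0.15) lay below that range and petN at 0.27 (SE 0.15) above it. By vector this held only in part. With pGWB2 the 12 ran from -0.10 to 0.24, where psbM (-0.25) lay below and petN (0.23) inside. With pMDC32 they ran from -0.41 to 0.23, where psbM (-0.19) lay inside and petN (0.31) above. psbM was chosen for a low value in this contrast.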

How the data were processed

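Leaf RNA was freed of ribosomal RNA before strand-marked (dUTP) libraries were built, per the labels' protocols. The authors deposited read counts for each gene, without normalization. Tools listed in the submitters' processing notes are HISAT2 2.2.1, Trim Galore 0.6.10, FastQC 0.12.1, DESeq2 1.42.0 and featureCounts 2.0.1. No source used here gives the build, the strand setting or how multiply mapped reads were treated. There are 106 rows: 80 protein-coding, 21 tRNA and 4 rRNA rows of the plastid and 1 transgene row.

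Comparisons used edgeR 4.0.16 under R 4.3.3 (quasi-likelihood test, TMM, filterByExpr, which all rows passed, two-sided p-values with Benjamini-Hochberg adjustment across the 106 rows, threshold 0.05), and the script was checked on simulated counts. All 9 libraries entered each fit, and the 6 editor libraries formed 1 group where said to be taken over both vectors. Alternatives used DESeq2 1.42.0, limma 3.58.1 (voom), other scalings, row sets, library sets and covariates. Values of psbM and petN against P19 carry no test, since they chose psbM. The genes named are the pair, up to 3 rows on each side, the extremes of the complex lists, short rows next in level, and the 5 most alike per member. Members and lists were chosen with earlier results of these data known. Replicates did not agree within sampling noise (1350 to 21044 as chi-square per degree of freedom), and none was treated as a duplicate. At 56828 or more reads per library for either gene, counting error is small beside the spread between libraries.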

Additional observations from a re-analysis of the deposited data

How the results depend on the processing

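Leaving out 1 library at a time gave log2 differences from P19 of -0.69 to -0.25 (pGWB2), -0.68 to -0.19 (pMDC32) and -0.68 to -0.22 (both) for psbM, and of -0.64 to 0.23, -0.56 to 0.31 and -0.60 to 0.27 for petN, each nearest to or above 0 without P19 replicate 1. For pMDC32 minus pGWB2 the ranges were -0.11 to 0.15 for psbM, -0.084 to 0.14 for petN and -0.19 to 0.11 for their ratio. The ratio by day ran from -0.32 to 0.036, psbM by day from 0.049 to 0.45, petN by day from 0.010 to 0.73 and genes called by day from 0 to 2. With the 3 dpi libraries alone petN differed from P19 by 0.17 (pGWB2), 0.36 (pMDC32) and 0.27 (both), psbM by -0.34 (pGWB2), -0.14 (pMDC32) and -0.24 (both), and the ratio between vectors was 0.017. Upper quartile scaling turned psbM between vectors to -0.035. Lane 4 alone, a setting chosen after seeing the data as were the other lane fits, gave 0.20 for petN, and lane 8 alone -0.96 for psbM, -1.07 for petN and 51 genes called, where the lone P19 library is assumed to vary like the others. DESeq2 called 1, 1 and 3 genes against P19 (pGWB2, pMDC32, both) and 2 by day, library totals gave 2 by day, and fitting only the groups compared gave 1 between vectors. The cause of these changes was not tested.

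With the replicate number as a block the differences from P19 were -0.51 (pGWB2), -0.49 (pMDC32) and -0.50 (both) for psbM and -0.26, -0.21 and -0.23 for petN, and between vectors 0.025 and 0.047, and the block changed no call. Same-numbered libraries correlated in their deviations at -0.52 to 0.72, and 3 of 9 libraries correlated best with their own number, so the numbers were not taken as pairs.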
